A study of Mus musculus with 16 samples.

Results

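The 10 acute-phase genes of the liver described here are the serum amyloid A genes Saa1, Saa2, Saa3 and Saa4, the orosomucoid genes Orm1, Orm2 and Orm3, and Apcs, Lcn2 and Hp. They were chosen by name as the serum amyloid and orosomucoid acute-phase proteins and their companions, with earlier results of these data known. All 10 had a single row among the 15544 genes of the table. Liver RNA of female mice aged 27 weeks was sequenced in 16 libraries, in 4 groups of 4. Control mice (Esr1 fl/fl) carried floxed copies of Esr1, the gene for oestrogen receptor alpha, and no Cre. Mutant mice (Esr1 Nkx2-1Cre) carried the same floxed alleles with a Cre recombinase driven by Nkx2-1, a gene of the developing hypothalamus that is also active in thyroid and lung, so that the deletion is not limited to one kind of neuron. In the study these mutants have high bone mass on a standard diet, and the paper reports that a high-fat diet reversed it. Both genotypes were kept on a mixed CD-1;129P2 background. Each genotype was split between chow throughout and 17 weeks of a high-fat diet (HFD) that began at 10 weeks of age, so that all 4 groups share the floxed alleles, sex and age. The labels do not say that every library came from a mouse of its own, and p-values measure the spread between libraries only.

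The acute-phase response is the change in plasma proteins that follows infection, injury or inflammation. Cytokines, chiefly interleukin-6 and interleukin-1, act on hepatocytes through STAT3, NF-kB and C/EBP transcription factors, and the liver then secretes large amounts of proteins that are scarce in healthy plasma. Serum amyloid A is the textbook example in the mouse, and orosomucoid, haptoglobin and serum amyloid P belong to the same response.

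The Saa and Orm genes are tandem families, and their sequence bears on how their values can be read. Saa3, Saa4, Saa1 and Saa2 lie in that order within 42.316 kb of chromosome 7 (GRCm38, the build also called mm10, 46711998 to 46754313). Saa1 (chr7:46740497-46742980, minus strand) and Saa2 (chr7:46751790-46754313, plus strand) point away from each other across 8.809 kb. Orm1, Orm3 and Orm2 lie in that order on the plus strand within 21.319 kb of chromosome 4 (63344560 to 63365878). Apcs (chr1:172893961-172895041), Lcn2 (chr2:32384633-32388252) and Hp (chr8:109575128-109579172) are single genes on the minus strand of other chromosomes. The Saa1 and Saa2 transcripts of GENCODE M21 were 94.4% identical over 606 aligned bases, and Orm1 and Orm2 were 91.0% identical over 775. Reads can therefore be divided between Saa1 and Saa2, and among the Orm genes, with uncertainty. Saa1 and Saa4 were 73.2% identical over their 366 aligned bases.

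The stretches just upstream of 5 of these genes are printed so that 2 pairs of near-copies, Saa1 with Saa2 and Orm2 with Orm3, can be compared with each other, and the Saa pair with Saa4, a member of the same cluster whose values varied less. Each runs 5′ to 3′ on the gene's own strand and ends before the annotated start of the gene (RefSeq, GRCm38.p6). The Saa2 stretch has 207 bases and stops at 46751789, short of its RefSeq start at 46751833. The bases between are not printed, and distances below are counted from the RefSeq start. Capitals mark matches to TTGCNNAA on either strand, a core pattern bound by C/EBP factors.
Saa1 (chr7:46742981-46743230, minus strand): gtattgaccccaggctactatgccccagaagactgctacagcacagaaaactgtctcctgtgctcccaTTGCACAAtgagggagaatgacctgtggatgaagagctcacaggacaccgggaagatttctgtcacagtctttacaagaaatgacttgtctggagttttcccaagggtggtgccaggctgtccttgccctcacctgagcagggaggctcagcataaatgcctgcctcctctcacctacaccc
Saa2 (chr7:46751583-46751789, plus strand): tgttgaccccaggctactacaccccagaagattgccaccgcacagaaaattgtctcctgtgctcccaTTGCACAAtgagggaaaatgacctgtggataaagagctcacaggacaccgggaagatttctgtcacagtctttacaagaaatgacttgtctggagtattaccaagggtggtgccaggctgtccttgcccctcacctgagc
Saa4 (chr7:46732604-46732853, minus strand): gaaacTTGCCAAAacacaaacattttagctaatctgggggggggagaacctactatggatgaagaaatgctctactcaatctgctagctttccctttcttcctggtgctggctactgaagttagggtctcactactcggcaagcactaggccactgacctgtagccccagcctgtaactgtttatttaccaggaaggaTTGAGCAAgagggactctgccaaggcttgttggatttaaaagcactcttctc
Orm2 (chr4:63362199-63362448, plus strand): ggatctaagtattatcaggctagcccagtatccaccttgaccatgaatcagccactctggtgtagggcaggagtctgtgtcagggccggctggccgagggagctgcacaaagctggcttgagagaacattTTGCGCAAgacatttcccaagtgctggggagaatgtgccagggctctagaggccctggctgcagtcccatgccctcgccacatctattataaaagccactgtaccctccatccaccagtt
Orm3 (chr4:63355908-63356157, plus strand): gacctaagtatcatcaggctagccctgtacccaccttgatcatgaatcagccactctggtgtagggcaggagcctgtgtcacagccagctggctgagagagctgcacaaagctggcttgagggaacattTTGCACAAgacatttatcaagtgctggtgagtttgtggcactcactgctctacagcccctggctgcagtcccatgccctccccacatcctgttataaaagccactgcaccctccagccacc
The Saa1 and Saa2 stretches were 95.1% identical over 204 aligned bases and those of Orm2 and Orm3 89.4% identical over 245, so that the members of a pair are not independent examples. RefSeq promoters were held for 8 of the 10 genes, all but Orm1 and Hp. The pattern TTGCNNAA was found in the 250 bases before the RefSeq start of 7 of these 8, Apcs being the exception, against 9.56% of 32851 promoters. In Saa1 and Saa2 the match began 182 and 183 bases before the start, and in Orm2 and Orm3 120 and 121 bases before it. The NF-kB pattern GGGANTTNC was found in none of the 8, against 3.54% of all promoters. The STAT pattern TTCNNNGAA was found only in Apcs among the 8, against 7.02%. No match of one pattern overlapped a match of another in these genes. A match is a string of letters and not a measured binding site.

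All values are size-factor-adjusted TPM, in which each transcript's share of its library is adjusted for transcript length, so that levels can be compared between genes. Library totals ranged from 905897 to 1119700, and the sequencing depth is unknown. The hepatocyte markers, 10 of 10 tested, summed to between 64898 and 106395 in every library, as the label liver asks. Esr1, whose floxed alleles are the target of Cre in the brain, ranged from 7.59 to 15.9 in chow controls and from 8.02 to 19.6 in chow mutants. On HFD it ranged from 6.14 to 8.09 in controls and from 6.42 to 22.9 in mutants, and liver is not the tissue that checks the deletion. The numbers in the library titles form 4 series, each within 1 diet, and what they stand for is not labelled. Among HFD libraries, control replicates 1 to 3 and mutant replicate 1 belong to the lower-numbered series. Control replicate 4 and mutant replicates 2 to 4 belong to the other.

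On chow, the acute-phase genes split the 4 mutants. Replicate 2 held the highest value of all 16 libraries for 10 of the 10 genes, and replicate 1 lay above every chow control for 9 of the 10. Replicates 3 and 4 lay within or close to the control range for most genes, but replicate 3 was below every control for 3 genes (Saa1, Saa2 and Orm2). Together the 10 genes made up 7.63% of the signal of mutant replicate 2 and 0.903% of that of replicate 1. They made up 0.294% and 0.311% in replicates 3 and 4, against 0.275% to 0.344% in the 4 chow controls. Relative to the chow control mean, the median over the 10 genes was 13.6-fold in replicate 2 (4.50 to 601.5-fold) and 3.73-fold in replicate 1 (1.20 to 24.4-fold). It was 1.01-fold in replicate 3 (0.344 to 1.34-fold) and 0.989-fold in replicate 4 (0.806 to 1.72-fold). The only library on HFD with a comparable share was control replicate 1, at 1.39%. The plot of shares by library shows that Saa1 and Saa2 took about as much of mutant replicate 2 as all the other members together.

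**Figure D1:**
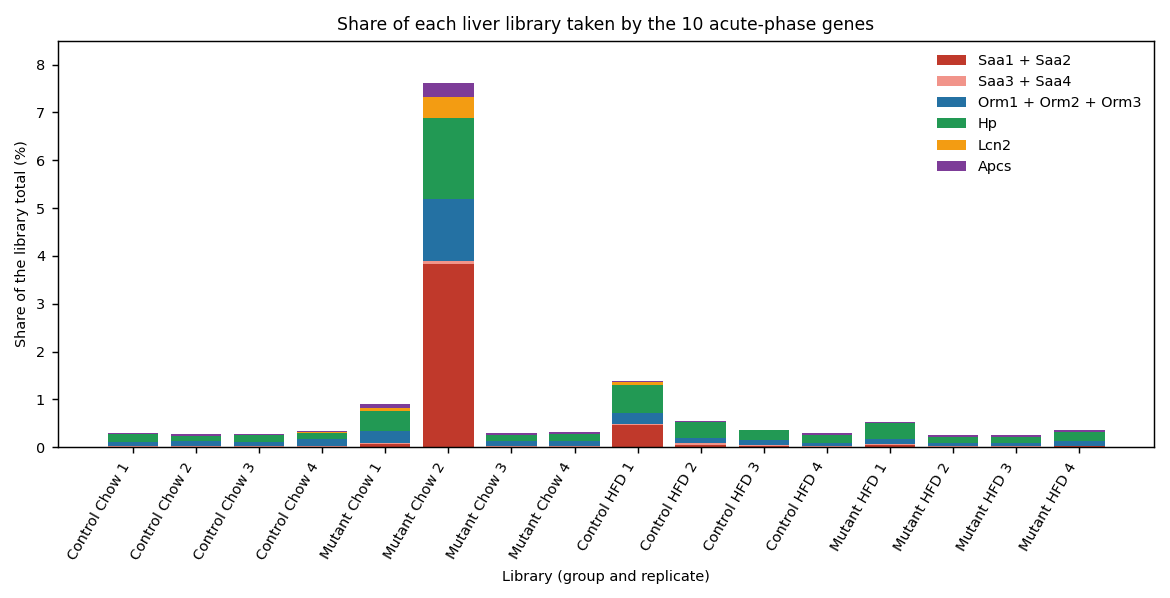
Stacked bars give the share of each library's total, in percent, held by the 10 genes, with the 16 libraries along the horizontal axis by group and replicate. Chow mutant replicate 2 reaches 7.63%, and the other 15 libraries lie between 0.259% and 1.39%.

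Saa1 and Saa2 encode the main acute-phase apolipoproteins of mouse plasma. In chow controls, Saa1 read 58.5, 30.5, 46.4 and 63.2 in replicates 1 to 4, and in chow mutants 385, 20634, 22.1 and 47.8. Saa2 read 35.2, 23.0, 29.1 and 45.2 in controls and 189.9, 19924, 11.4 and 32.4 in mutants. Mutant replicate 2 stood 416-fold over the control mean for Saa1 and 602-fold for Saa2, replicate 1 stood 7.75-fold and 5.73-fold over it, and replicate 3 was below every control for both genes. The groups therefore overlapped. The log2 difference between mutants and controls was 2.65 ± 1.69 (SE) for Saa1 and 2.59 ± 1.80 (SE) for Saa2, and neither passed limma's test (adjusted p = 0.894 and 0.924). Without mutant replicate 2 the differences were 0.63 and 0.37.

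On HFD, Saa1 read 2886, 379, 183 and 46.0 in controls and 309, 15.6, 27.1 and 111 in mutants. Saa2 read 1966, 224, 114 and 23.8 in controls and 198, 9.63, 16.3 and 74.7 in mutants. Control replicate 1 was the highest HFD library for both genes, at 14.2-fold and 16.3-fold the mean of the other 3 controls, and mutant replicate 1 lay near control replicates 2 and 3. The sum of Saa1 and Saa2, which does not depend on how reads are divided between them, ranged from 25.2 to 40558 over the 16 libraries. Its log2 difference between chow mutants and chow controls was 2.64 ± 1.74 (SE, limma adjusted p = 0.905). The ratio of Saa1 to Saa2 was 1.04 in chow mutant replicate 2 and between 1.32 and 2.02 in the other 15 libraries.

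Saa3 is the family member made also outside hepatocytes, by macrophages and adipocytes, and Saa4 is the constitutive member, known to vary little in the acute phase. Saa3 read 16.6, 5.66, 8.98 and 22.2 in chow controls and 16.1, 137, 7.10 and 10.8 in chow mutants, so that only mutant replicate 2 exceeded the controls. Saa4 read 115, 129, 166 and 131 in chow controls and 189, 609.8, 152 and 123 in chow mutants, and its 4.50-fold value in replicate 2 was the smallest of the 10 genes. On HFD, Saa3 read 61.5, 89.9, 33.7 and 9.46 in controls and 88.2, 3.502, 5.32 and 14.03 in mutants. Control replicates 1 to 3 and mutant replicate 1 were the 4 high libraries there. Saa4 stayed within a narrow range on HFD, with 229, 206, 171 and 159 in controls and 184, 116, 134 and 141 in mutants. The chow difference was 0.76 ± 0.97 (SE) for Saa3 and 0.68 ± 0.35 (SE) for Saa4 (limma adjusted p = 0.995 and 0.839). Without mutant replicate 2 it was -0.13 and 0.18, and the sign of Saa3 turned.

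**Figure D2:**
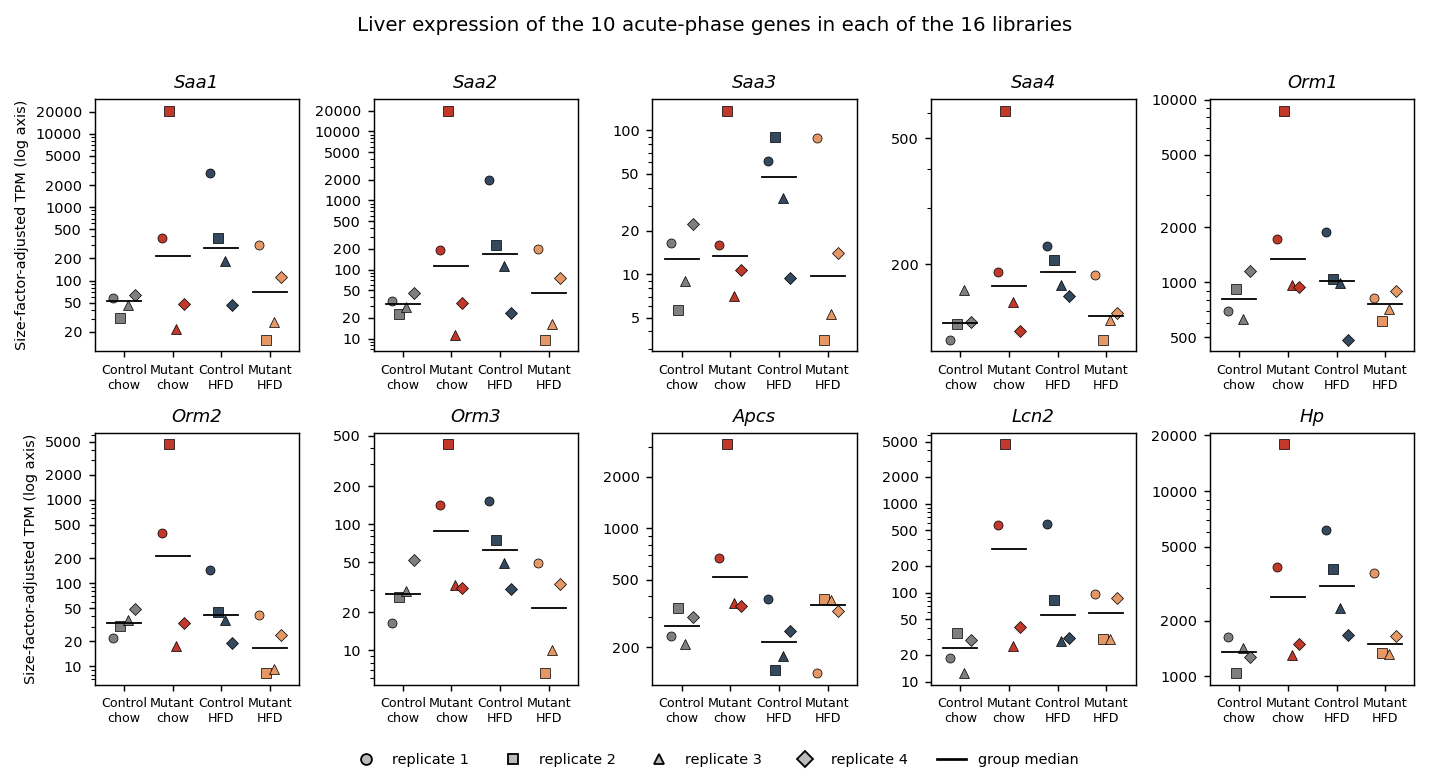
Each panel gives 1 gene in size-factor-adjusted TPM on a log axis, with 4 groups of 4 libraries, marker shapes for replicates 1 to 4 and a bar at the group median. The square of chow mutant replicate 2 is the top point of every panel, and the circle of control replicate 1 is the top HFD point in all panels but that of Saa3.

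The orosomucoids, or alpha-1-acid glycoproteins, are plasma carriers of basic and neutral molecules. Orm1 is the abundant one in resting liver and Orm2 and Orm3 are minor. Orm1 read 697, 923, 629.5 and 1155 in chow controls and 1716, 8712, 971 and 947 in chow mutants. Orm2 read 22.2, 30.7, 36.0 and 48.7 in controls and 395, 4650.2, 17.6 and 33.0 in mutants. Orm3 read 16.5, 26.3, 29.7 and 52.4 in controls and 143, 430.2, 32.7 and 31.2 in mutants. For all 3 genes mutant replicates 1 and 2 were above every control and replicates 3 and 4 were not. Replicate 2 stood 10.2-fold over the control mean for Orm1, 135-fold for Orm2 and 13.8-fold for Orm3. In replicate 1 the same folds were 2.02, 11.47 and 4.57.

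The make-up of the family differed in chow mutant replicates 1 and 2, as far as reads could be divided among its genes. Orm1 held 63.2% of the summed Orm signal in chow mutant replicate 2, 76.2% in replicate 1 and between 86.5% and 97.6% in the other 14 libraries. Orm2 held 33.7% in replicate 2, 17.5% in replicate 1 and at most 6.54% elsewhere. A high level did not always go with this make-up. The summed Orm signal of HFD control replicate 1 was 2194, near the 2253 of chow mutant replicate 1, with 86.5% Orm1 and 6.54% Orm2. The log2 difference between chow mutants and chow controls was 1.22 ± 0.56 (SE) for Orm1, 2.44 ± 1.25 (SE) for Orm2 and 1.61 ± 0.79 (SE) for Orm3. Orm1 had an unadjusted p of 0.0453 and an adjusted p of 0.806 in limma. The sum of the 3 genes differed by 1.42 ± 0.64 (SE), with an unadjusted p of 0.0414 and an adjusted p of 0.802 in limma. Without mutant replicate 2 the 3 differences were 0.49, 0.89 and 0.85.

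On HFD, Orm1 read 1897, 1048, 986 and 484 in controls and 818, 611, 711 and 899 in mutants, whose range lay inside that of the controls. Orm2 read 143, 45.4, 36.6 and 19.4 in controls and 41.9, 8.29, 9.28 and 23.9 in mutants. Orm3 read 153, 75.5, 49.6 and 30.5 in controls and 49.6, 6.60, 10.1 and 33.3 in mutants. Mutant replicates 2 and 3 were the lowest 2 of all 16 libraries for both Orm2 and Orm3.

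Apcs encodes serum amyloid P, the main acute-phase pentraxin of the mouse. It read 235, 342.1, 211 and 302 in chow controls and 669, 3114, 365 and 349 in chow mutants. It was the only one of the 10 genes for which all 4 chow mutants lay above all 4 chow controls, although replicates 3 and 4 exceeded the highest control by only 1.07 and 1.02-fold. Of all genes tested, 1.95% showed the same separation. The log2 difference was 1.42 ± 0.56 (SE), with an unadjusted p of 0.0215 and an adjusted p of 0.804 in limma. The exact two-sided permutation test gave p = 0.0286, the smallest that 4 against 4 libraries can give. Without mutant replicate 2 the difference was 0.72. On HFD, Apcs read 385, 148, 178 and 250.2 in controls and 141, 384, 378 and 327.7 in mutants, with mutant replicate 1 the lowest of the 16 libraries.

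Hp encodes haptoglobin, which binds free haemoglobin, and was the most abundant of the 10 genes in the chow controls. It read 1641, 1040.4, 1427 and 1273 in chow controls and 3894, 17949, 1299.7 and 1504 in chow mutants. Only mutant replicates 1 and 2 exceeded the controls, by 2.89 and 13.3-fold over their mean. The log2 difference was 1.36 ± 0.65 (SE) (limma adjusted p = 0.825), and 0.57 without mutant replicate 2. On HFD, Hp read 6147, 3815, 2338 and 1668 in controls and 3609, 1335, 1318 and 1659.6 in mutants, and 3 of the 4 mutants lay below every control. The highest of these 3, at 1659.6, was close to the lowest control, at 1668. These 3 mutants and that control are the higher-numbered title series, within which the log2 difference was -0.22. The share of all genes with this pattern was not counted.

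Lcn2 encodes lipocalin-2, a siderophore-binding protein made by hepatocytes in the acute phase and stored in neutrophil granules. It read 18.2, 34.9, 12.4 and 29.4 in chow controls and 580.3, 4677, 25.4 and 40.9 in chow mutants. Replicates 1, 2 and 4 exceeded every control, at 24.4, 197 and 1.72-fold the control mean, and replicate 3 at 1.07-fold did not. Its log2 difference of 3.35 ± 1.31 (SE) was the largest of the 10 genes (unadjusted p = 0.0217, adjusted p = 0.804 in limma). Without mutant replicate 2 it was 1.91. On HFD, Lcn2 read 598, 82.4, 28.3 and 30.9 in controls and 97.7, 29.8, 30.1 and 87.6 in mutants, and the groups overlapped.

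Over the 10 genes, none passed limma at an adjusted p below 0.05 between chow mutants and chow controls, against 0.0236% of all 12704 genes tested. At an unadjusted p below 0.05, 3 members (Orm1, Apcs and Lcn2) were higher in mutants, against 6.08% of all genes in either direction and 4.23% in that direction. All 10 log2 differences were positive, with a median of 1.51 (0.68 to 3.35) beside a median of 0.02 over all genes. Without mutant replicate 2, 9 of the 10 stayed positive, the median was 0.60 and none had an unadjusted p below 0.05. The count of 3 was 1 without mutant replicate 1, 0 without control replicate 3, 9 without mutant replicate 3 and 7 without mutant replicate 4. Over all 12704 genes the same count was 772 in the main fit. It ran from 421 without mutant replicate 2 to 1240 without mutant replicate 3. Within the lower-numbered chow series, with 1 mutant (replicate 1) and 2 controls, all 10 differences were positive with a median of 2.13. In the higher-numbered series, with 3 mutants (replicates 2 to 4) and 2 controls, all 10 were positive with a median of 1.41. Without replicate 2 that series gave a median of -0.20, and 6 of the 10 differences (Saa1, Saa2, Saa3, Saa4, Orm2 and Orm3) were negative.

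**Figure D3:**
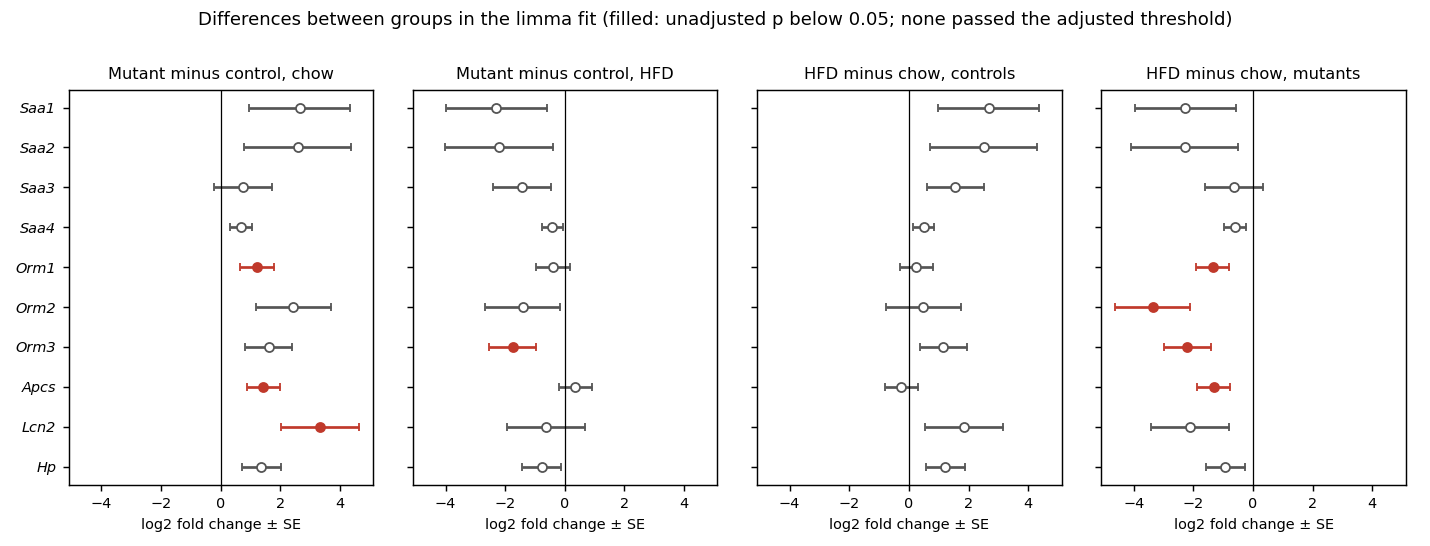
Points give the log2 fold change of each gene in the limma fit and bars its standard error, in 4 comparisons with 4 libraries a group, and filled points have an unadjusted p below 0.05. All 10 points lie right of 0 for mutants against controls on chow, 9 lie left of 0 on HFD, and none passed the adjusted threshold.

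The spread within groups is given beside that of all genes, for members chosen with earlier results of these data known. Among chow mutants the median SD of log2 values over the 10 genes was 1.82, against 0.233 over all genes tested. Saa2 had the largest SD of all 12704 genes in that group, 4.72, and Saa1 the second largest, 4.39. Orm2 ranked 8th with 3.64 and Lcn2 10th with 3.49. For all of these genes the highest value was that of replicate 2, with Saa1 at 20634 there and at most 385 in the rest of the group. SDs without that library were not computed, and genes that move together are not independent examples. Among chow controls the median SD of the 10 genes was 0.429, against 0.200 over all genes. The HFD controls had 1.08 and the HFD mutants 0.990, against 0.260 and 0.219 over all genes. The median over the 10 genes was thus above that of all genes in every group, though not every member was, since Saa4 in HFD controls had an SD of 0.240.

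On HFD, 9 of the 10 genes had lower mean log2 values in mutants than in controls, all but Apcs. The median log2 difference was -1.10 (-2.30 to 0.35), beside 0.02 over all genes. None passed limma at an adjusted p below 0.05, against 0.0157% of all genes, and only Orm3 had an unadjusted p below 0.05 (-1.75 ± 0.79 (SE), unadjusted p = 0.0417, adjusted p = 0.575), against 8.6% of all genes. No member separated the groups, and the share of all genes that did was not counted. Exact two-sided permutation p-values ran from 0.0857 upward. Without control replicate 1 the median was -0.66, 8 of the 10 were negative and none had an unadjusted p below 0.05, and Lcn2 turned to 0.33. The count of 1 was also 0 without control replicate 2, without mutant replicate 2 or without mutant replicate 3, and 2 without mutant replicate 1 or without chow mutant replicate 2.

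The HFD libraries were also compared by title series, whose meaning is not labelled. For 7 of the 10 genes (Saa1, Saa2, Saa3, Saa4, Orm2, Orm3 and Hp) all 4 libraries of the lower-numbered series lay above all 4 of the higher-numbered series, and 16% of all genes tested did the same. Saa1 ran from 183 to 2886 in the lower-numbered series and from 15.6 to 111 in the higher-numbered series. Saa3 ran from 33.7 to 89.9 and from 3.502 to 14.03, and Hp from 2338 to 6147 and from 1318 to 1668. Orm1, Lcn2 and Apcs overlapped between the series. Apcs went the other way, with a median of 163 in the lower-numbered and 353 in the higher-numbered series. Series and genotype are unevenly crossed, with 3 controls in the one and 3 mutants in the other. With the series as a term in the limma fit, the median genotype difference on HFD was -0.18 (-0.94 to 0.13). Within the lower-numbered series (1 mutant, 3 controls) 9 of the 10 differences were negative with a median of -0.59. Within the higher-numbered series (3 mutants, 1 control) 7 were negative with a median of -0.26. When limma weighted the libraries by their quality, Saa1, Saa3, Orm3 and Hp passed at adjusted p-values of 0.0419, 0.00706, 0.0115 and 0.0456. In that fit 3926 of the 12704 genes passed, and control replicate 4 and mutant replicate 1, the libraries that cross the series, had weights of 0.228 and 0.329. The part of the title series in the HFD result was not tested further.

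**Figure D4:**
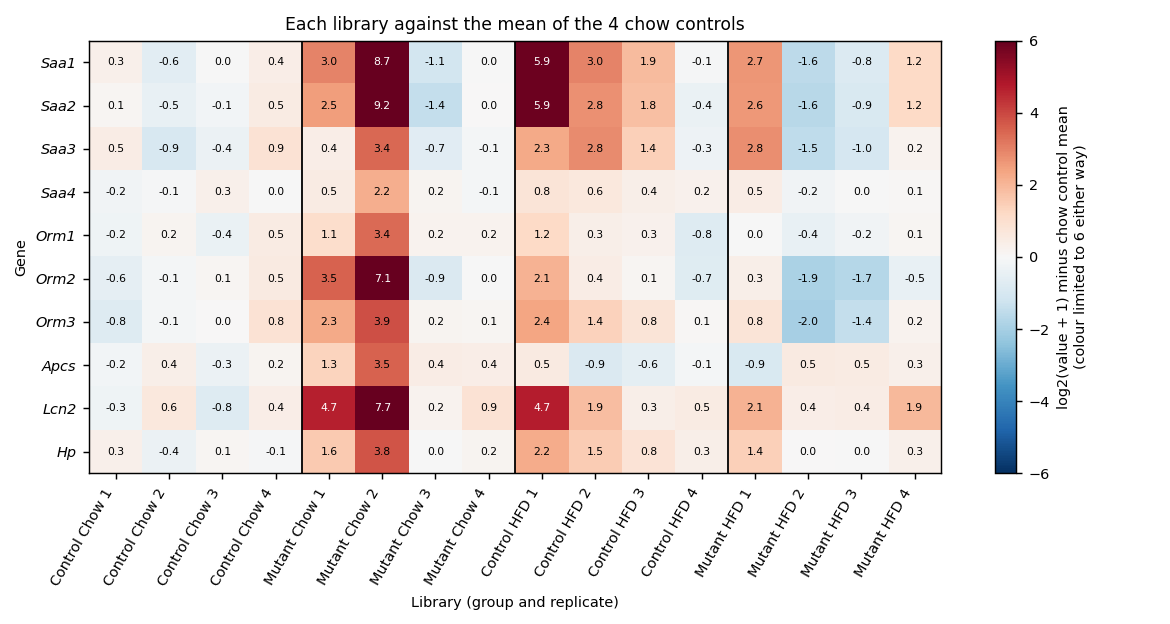
Each cell gives log2(value + 1) of a gene (rows) in a library (columns, by group and replicate) minus the mean of the 4 chow controls, with red for higher and blue for lower and colour limited to 6 either way. Chow mutant replicate 2 is red in every row. By the median over genes, control HFD replicate 1 (2.25) and then chow mutant replicate 1 (1.91) follow.

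In controls, HFD against chow gave positive log2 differences for 9 of the 10 genes, with a median of 1.18 (-0.25 to 2.67) beside -0.01 over all genes. None passed limma at an adjusted p below 0.05 or at an unadjusted p below 0.05, against 0% and 12.9% of all genes. Hp separated the groups, with all 4 HFD controls above all 4 chow controls, as did 3.38% of all genes. Its difference was 1.22 ± 0.65 (SE) (adjusted p = 0.444 in limma; exact two-sided permutation p = 0.0286). For Saa1, Saa2, Saa3 and Saa4, 3 of the 4 HFD controls exceeded every chow control, and the fourth, replicate 4, did not. The share of all genes with this pattern was not counted. Replicate 4 is the only HFD control of the higher-numbered title series. Each title series lies within 1 diet, so that diet and series cannot be told apart here. Without HFD control replicate 1 the median over the 10 genes was 0.81 and the signs of Orm1 and Orm2 turned, to -0.06 and -0.05. The count of 0 became 2 without HFD control replicate 4 and 3 without chow mutant replicate 2. Over all 12704 genes the count at an unadjusted p below 0.05 was 1641 in the main fit and 1048 without HFD control replicate 2. With library weights, Saa3 passed limma at an adjusted p of 0.0435, in a fit where 2264 of the 12704 genes passed.

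In mutants, HFD against chow gave negative log2 differences for all 10 genes, with a median of -1.74 (-3.37 to -0.60) beside -0.01 over all genes. None passed limma at an adjusted p below 0.05, against 0% of all genes. At an unadjusted p below 0.05, 4 members (Orm1, Orm2, Orm3 and Apcs) were lower on HFD, against 6.86% of all genes in either direction and 4.16% in that direction. Orm1 separated the groups, with all 4 HFD mutants below all 4 chow mutants, as did 1.86% of all genes (-1.36 ± 0.56 (SE), adjusted p = 0.687 in limma, exact two-sided permutation p = 0.0286). Orm2 had the largest difference, -3.37 ± 1.25 (SE) (adjusted p = 0.639 in limma). Without chow mutant replicate 2 the median over the 10 genes was -0.44, none had an unadjusted p below 0.05 and Saa3 turned to 0.25. Without HFD mutant replicate 2 the count was 2, and Orm2 without chow mutant replicate 2 was -1.82. These comparisons share libraries with the genotype comparisons above.

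The interaction asks whether the difference between genotypes was the same on both diets. It was negative for all 10 genes, with a median of -2.78 (-4.96 to -1.07) beside -0.01 over all genes, and none passed limma at an adjusted p below 0.05 (adjusted p = 0.895 for each), against 0% of all genes. At an unadjusted p below 0.05 it held 5 members (Saa4, Orm2, Orm3, Lcn2 and Hp), against 4.21% of all genes. Orm3 had the smallest unadjusted p, 0.00862, with a difference of -3.36 ± 1.116 (SE). Without chow mutant replicate 2 the median was -1.82 and 2 members had an unadjusted p below 0.05. The count of 5 was 8 without chow mutant replicate 3, chow mutant replicate 4 or HFD control replicate 4. It was 3 without chow control replicate 3 or HFD control replicate 3, and 2 without chow control replicate 1 or chow mutant replicate 1. It was 1 without chow control replicate 2 or 4, HFD control replicate 1 or 2, or HFD mutant replicate 2, 3 or 4. With the title series as a term it was 0.

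Other positive acute-phase proteins had 24 of 25 listed genes tested, A2m having no row. Between chow mutants and chow controls 23 of the 24 differences were positive, with a median of 0.71, and 14 were higher at an unadjusted p below 0.05. None passed the adjusted threshold in limma (lowest adjusted p = 0.276). The metallothioneins Mt1 and Mt2, which bind zinc and copper, led this list. Mt2 ranged from 19.5 to 56.9 in chow controls and read 734, 5541, 174 and 207 in the 4 chow mutants. Mt1 ranged from 125 to 311 in controls and read 1139.5, 8912, 456 and 549 in mutants. Unlike 9 of the 10 members, both genes were higher in all 4 mutants, replicates 3 and 4 included. Their log2 differences were 4.31 ± 0.94 and 2.67 ± 0.77 (SE), with limma adjusted p-values of 0.276 and 0.611. Cp, the copper carrier ceruloplasmin, ranged from 470.1 to 572 in controls and read 1154, 3216, 727 and 689.7 in mutants. Lbp, which binds bacterial lipopolysaccharide, ranged from 58.4 to 75.8 in controls and read 181, 589, 77.7 and 73.6 in mutants. In HFD control replicate 1, where the members were high, Mt2 was 43.1 and Mt1 144. On HFD, the list's median difference between genotypes was -0.08, with none at an unadjusted p below 0.05.

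Negative acute-phase proteins, which the liver makes less of in the response, had 10 of 10 genes tested. Their chow differences had a median of 0.13, and 3 were higher and none lower at an unadjusted p below 0.05, so that the list did not mirror the members. Fetub, a fetuin, ranged from 367 to 509.9 in chow controls and read 587, 991, 507 and 542 in mutants. Trf, the plasma iron carrier transferrin, ranged from 11574 to 14277 in controls and read 20153, 35041, 15402 and 13582 in mutants. None passed the adjusted threshold in limma.

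Interleukin receptors and STAT3 and NF-kB signalling genes, 22 of 22 tested, had positive chow differences for 20 genes (median 0.41). At an unadjusted p below 0.05, 5 genes of the list were higher and 1 was lower, and none passed the adjusted threshold in limma. Stat3 ranged from 48.0 to 66.7 in chow controls and read 87.7, 118, 61.3 and 62.1 in mutants. Socs3, a feedback inhibitor that STAT3 induces, ranged from 3.55 to 7.94 in controls and read 12.7, 29.1, 7.46 and 4.72 in mutants. Cebpd, a C/EBP factor of the acute phase, ranged from 1.48 to 2.59 in controls and read 5.01, 8.21, 1.56 and 4.09. Replicates 1 and 2, the libraries with high members, were thus the highest chow mutants for these 3 genes. In HFD control replicate 1, Socs3 was 16.9, Stat3 59.99 and Cebpd 2.48. Il1rap, the accessory chain of the interleukin-1 receptor, went the other way, with a range from 106 to 128 in chow controls and values of 44.8, 57.0, 80.1 and 95.1 in mutants (limma adjusted p = 0.548). Il6ra, the interleukin-6 receptor, ranged from 20.6 to 28.3 in controls and from 21.4 to 30.0 in mutants. Lifr, the receptor of leukaemia inhibitory factor, ranged from 56.2 to 153 in controls and from 163 to 377 in mutants.

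Receptors and partners of the members had 10 of 11 genes tested, Lrp2 being below the filter. On chow 9 of the 10 differences were positive (median 0.38), and 1 was higher at an unadjusted p below 0.05. That gene was Fpr2, the formyl peptide receptor that binds serum amyloid A, which ranged from 0.613 to 2.47 in controls and read 7.18, 20.5, 0.604 and 2.56 in mutants. Hpx, haemopexin, which binds haem as haptoglobin binds haemoglobin, ranged from 1979 to 2946 in controls and read 5095, 19025, 2044 and 2448 in mutants. Tlr2, a Toll-like receptor through which serum amyloid A can signal, ranged from 1.01 to 2.24 in controls and read 3.602, 10.1, 1.02 and 1.73 in mutants.

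Markers of other cells were high beside the members in some libraries. In bulk tissue, a change in the number of cells of a type and a change in RNA per cell cannot be told apart. Of 13 neutrophil markers, 12 had a row and 10 were tested, Ly6g having none and Cxcr2 and Mmp8 being below the filter. All 10 were higher in chow mutants at an unadjusted p below 0.05, with a median log2 difference of 3.84, and none passed the adjusted threshold in limma (lowest adjusted p = 0.276). The 12 markers summed to 4.89 to 14.1 in chow controls and to 3146, 6770, 27.9 and 121 in the chow mutants. S100a8, a subunit of calprotectin, ranged from 0.726 to 2.05 in chow controls and read 1079, 2693, 8.22 and 34.1 in mutants. Replicates 1 and 2 were again the high libraries, and Lcn2, a neutrophil granule protein as well as a liver protein, was high in both. In HFD control replicate 1 the neutrophil sum was 8.60, within the range of chow controls, while Saa1 was 2886 and Lcn2 598. In HFD mutants the sum ran from 14.7 to 160.0. The part of neutrophils in the chow values was not tested.

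**Figure D5:**
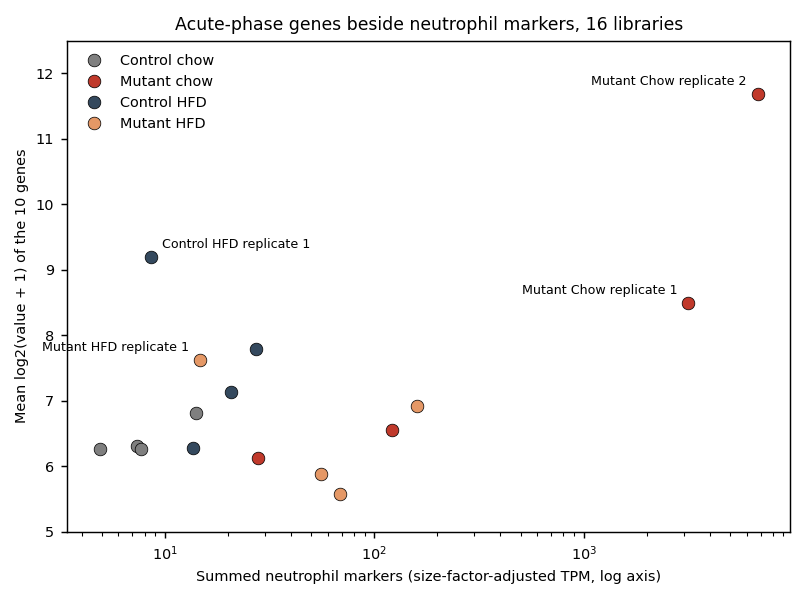
Each point is a library, with the sum of 12 neutrophil markers in size-factor-adjusted TPM on a log axis across and the mean log2(value + 1) of the 10 genes upward, coloured by group. Chow mutant replicates 1 and 2 are high on both, and control HFD replicate 1 is high on the vertical axis only, at 9.20 with a marker sum of 8.60.

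Macrophage and Kupffer cell markers, 13 of 13 tested, had positive chow differences for all 13 (median 0.72), with 3 higher at an unadjusted p below 0.05. They summed to 229 to 703 in chow controls, 1034 and 1413 in chow mutant replicates 1 and 2, and 373 to 1413 in that group as a whole. Lyz2, lysozyme of macrophages and neutrophils, ranged from 23.8 to 66.1 in chow controls and read 210.0, 425, 44.9 and 36.8 in the chow mutants. Lymphocyte markers, 8 of 9 tested, had a median chow difference of 0.25, with 1 higher at an unadjusted p below 0.05, and stellate cell markers, 7 of 7 tested, one of -0.05 with none. Lymphocyte markers summed to at most 60.3 in any library, and stellate cell markers to at most 76.3. Of 7 adipose tissue markers 2 were tested (median chow difference -0.54, 1 lower at an unadjusted p below 0.05), and the defining markers Adipoq and Lep had no row. Hepatocyte markers had a median chow difference of -0.02, with none past an unadjusted p of 0.05, and summed to 68199 in chow mutant replicate 2.

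The members did not all follow each other. Over the 16 libraries, the Spearman coefficient of each gene with the mean log2 value of the other 9 was 0.962 for Saa1, 0.956 for Saa2, 0.915 for Orm3, 0.891 for Orm2, 0.853 for Saa3, 0.794 for Hp, 0.732 for Orm1, 0.726 for Saa4 and 0.665 for Lcn2. It was 0.0265 for Apcs, whose lowest values were in HFD control replicates 2 and 3 and HFD mutant replicate 1, where Saa3 and Hp were high. Among 12692 other genes, the 6 whose log2 values were most like the mean of the 10 genes were Tmem176b (0.956), Aif1 (0.912), Lgals3 (0.909), Gngt2 (0.906), Capzb (0.903) and Slfn2 (0.894). Tmem176b, a membrane protein, ranged from 183 to 782 and was highest in chow mutant replicate 2. Aif1 was highest in chow mutant replicate 1, at 28.3. These coefficients are descriptions over libraries that share groups and title series, and 2 of the libraries hold the extreme values.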

How the data were processed

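Per the labels and the methods of the study, liver RNA was quantified by the authors with kallisto and sleuth on mm10, with versions not given in the sources used here. The deposited table held 1 signal value for each of 15544 genes in 16 libraries. From library totals of 905897 to 1119700, these values were read as TPM after size-factor scaling by the authors, which is an inference. Depth is unknown, so that no counting interval could be given. All columns were mapped to a labelled library, and groups came from the labels. With R 4.3.3 and limma 3.58.1 (mean-variance trend), log2(value + 1) was fitted over all 16 libraries with 4 group means. Genes at 1 or more in at least 4 libraries (12704) were tested, and p-values were adjusted by Benjamini-Hochberg over all of them. Fold changes on this scale understate changes of low genes. Single members were also compared by exact two-sided permutation tests of mean log2 values. The fit was tested on simulated data. Outside the 10 genes, up to 4 genes of each list with the lowest unadjusted p on chow were named, together with a few fixed by name, and the 6 genes most like the members' mean by Spearman coefficient. The members and lists were chosen with earlier results of these data known. Sequences came from RefSeq GRCm38.p6 and GENCODE M21.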

Additional observations from a re-analysis of the deposited data

Results flagged for a closer look

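Among 40 sets of 4 libraries (10 genes in 4 groups), 1 held a library far from the other 3, and chance alone sets off about 1 in 20 such sets. In HFD mutants Apcs was 141 in replicate 1 and from 327.7 to 384 in the others. The gap from replicate 1 to its nearest neighbour was 0.841 of the whole range on the log2 scale, above Dixon's 95% critical value for sets of this size. Replicate 1 is the HFD mutant of the lower-numbered title series, and the cause of its value was not tested.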

How the results depend on the processing

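Over 26 refits for each genotype comparison and 25 for each of the others, the members' values kept their direction and side of the threshold in 258 of 260 cases for genotype on chow, 251 of 260 for genotype on HFD, 245 of 250 for the control diet comparison, 248 of 250 for the mutant diet comparison and 250 of 250 for the interaction. Outside the interaction, the direction could not change in many of these cases. A difference does not move when a library of another group is left out, or when only the groups compared are fitted. On chow the median over the 10 genes still went from 1.51 to 0.60 without mutant replicate 2. With library weights, 4 members passed on HFD and 1 in the diet comparison of controls, and counts at an unadjusted p below 0.05 were 0 on chow, 8 on HFD, 4 for diet in controls and 8 for the interaction. Of all 12704 genes, 3926 passed the adjusted threshold in that fit on HFD and 2264 for diet in controls. At an unadjusted p below 0.05 it held 5472 genes on HFD, 4266 for diet in controls and 3261 for the interaction. Fitting only the groups compared gave counts of 2 on HFD, 6 for diet among controls and 1 for diet among mutants. Scaling to the same total, with or without the members, gave 2 for the interaction, and the first moved the median of all genes by -0.15 for diet in controls and 0.14 for the interaction, the second by -0.14 and 0.11. With the title series as a term, counts were 0 on HFD and 0 for the interaction, and the HFD values of Saa3, Apcs and Lcn2 turned to 0.071, -0.040 and 0.13. Within the title series, values have no test. Within the higher-numbered chow series without mutant replicate 2, Saa1 was -0.72, Saa2 -0.87, Saa3 -0.64, Saa4 -0.11, Orm2 -0.77 and Orm3 -0.30. Within the lower-numbered HFD series Saa3 was 0.61 and Apcs -0.61, and within the higher-numbered series Orm1 was 0.59 and Lcn2 0.46. Leaving out both libraries with the highest Saa1 gave counts of 1 on chow, 0 on HFD, 1 and 2 for diet among controls and among mutants, and 1 for the interaction. It turned Saa3 to -0.13 on chow and 0.25 for diet in mutants, Lcn2 to 0.33 on HFD, and Orm1 and Orm2 to -0.060 and -0.054 for diet in controls. Leaving out single libraries gave counts from 0 to 9 on chow, 0 to 2 on HFD, 0 to 3 for diet among controls, 0 to 6 for diet among mutants, and 1 to 8 for the interaction term. Saa3 then ran from -0.13 to 1.24 on chow and from -1.53 to 0.25 for diet in mutants, Lcn2 from -1.12 to 0.33 on HFD, and Orm1 from -0.060 to 0.60 and Orm2 from -0.054 to 0.89 for diet in controls. Causes were not tested. Over all genes, the count past the adjusted threshold ran from 1 to 14 on chow, 1 to 3926 on HFD, 0 to 2264 for diet among controls and 0 to 9 for diet among mutants. At an unadjusted p below 0.05 it ran from 421 to 1240 on chow. Leaving out both libraries, the values within the HFD title series and those of the higher-numbered chow series without mutant replicate 2 were chosen after seeing the data. No paired analysis was possible because the labels give no replicate numbers. With depth unknown, the precision of low values cannot be given.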
